A study of Xenopus laevis with 13 samples.

Results

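Single gastrulae of the frog *Xenopus laevis* were compared with technical libraries of the same stage, to ask which transcripts differed between individual embryos by more than they differed between libraries made to measure technical error. The members are the gene models with at least 5 FPKM (a read count adjusted for transcript length and for the size of the library) in each of 5 single-embryo and 3 technical libraries, all of stage 10.5 in the Nieuwkoop and Faber series. They number 8548 of the 54110 gene models in the table, and 7931 of them carry a label other than unnamed. In some this label is only na, which is not a gene name. The 8 libraries are part of a series of 13.

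Each single embryo was a whole gastrula from eggs of 1 hormone-injected female, fertilised in vitro, dejellied, frozen in a tube of its own and made into a library after depletion of ribosomal RNA. The technical libraries carry the same labels for mother, stage and whole embryo. The study's supplement labels them as pools, but the sources used here do not say which embryos or which RNA went into them. What separates an individual from that material and what separates the preparations therefore cannot be told apart, and p-values measure the spread between these libraries of 1 mother only.

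At stage 10.5 the dorsal lip of the blastopore has formed and gastrulation begins. Transcripts laid down in the oocyte are still abundant, the zygotic genome is being transcribed, and the embryo has begun to divide into organizer, ventral tissue under BMP signalling, mesoderm, endoderm and ectoderm. A whole embryo holds all of these, so fewer cells of a type and less RNA per cell cannot be told apart. *X. laevis* is an allotetraploid with near-identical gene copies, between which reads can be divided.

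The labelled stage was checked against 25 markers of these tissues. Of the 24 with a gene model, 20 had one at 5 FPKM or more in all 8 libraries, among them gsc of the organizer, bambi of the ventral side, t of the mesoderm, sox17a of the endoderm and grhl3 of the epidermis, whereas nog, gata6 and sox2 did not and foxd4l1.1 was listed at 0 FPKM throughout. The depth, recovered from the steps between low FPKM values, was 1365812 to 3812939 reads on gene models in single embryos and 725399 to 1173955 in technical libraries. Counting error alone would give a median SD of 0.16 log2 units between embryos and 0.24 between technical libraries, so the embryos were measured more precisely. Embryos 3 and 5 stood apart from the other embryos, and results that rest on them are also given without them.

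Over all 8548 gene models, the median SD was a little larger between embryos than between technical libraries, not adjusted for depth or for the number of libraries. The median SD of log2(FPKM + 1) was 0.31 over embryos and 0.27 over technical libraries. Counting error alone would give 0.16 over embryos and 0.24 over technical libraries, so the technical SD holds more of it. The SD was larger over embryos in 4912 gene models (57.5%), and the range was larger in 6004 (70.2%). Both shares, and the median SD, also depend on the number of libraries in a group, which was larger for embryos. The excess was clearest in abundant transcripts. Above a mean of 100 FPKM the median SD was 0.32 over embryos and 0.21 over technical libraries, and between 5 and 10 FPKM it was 0.26 over embryos and 0.27 over technical libraries. Above 100 FPKM counting error alone would give 0.09 over embryos and 0.12 over technical libraries. Between 5 and 10 FPKM it would give 0.19 and 0.30. The part of depth and of the number of libraries in these differences was not tested.

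The embryos did not share this spread evenly. For each library the deviation of every gene model from its group mean was scaled for the number of libraries, and the median absolute value was taken. Embryo 5 deviated by 0.376 and embryo 3 by 0.323 log2 units, above the 0.216, 0.220 and 0.227 of the technical libraries, whereas embryos 1, 2 and 4, at 0.133, 0.193 and 0.160, lay below them. These deviations, and the test on them, were not adjusted for depth, and every technical library was shallower than every embryo library. The mean was 0.237 ± 0.106 over embryos (SD, n = 5) and 0.221 ± 0.00553 over technical libraries (SD, n = 3), a difference within the spread of the embryos (exact permutation test, two-sided, p = 0.79, where the smallest p possible is 0.036). Deviations within a group share its mean, which was not recomputed for each split, so this p-value and the SDs are a guide only. Without embryos 3 and 5 the difference was -0.0556. Those embryos had the largest values of this same measure, so the sign was fixed by leaving them out and the value is a description.

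**Figure D1:**
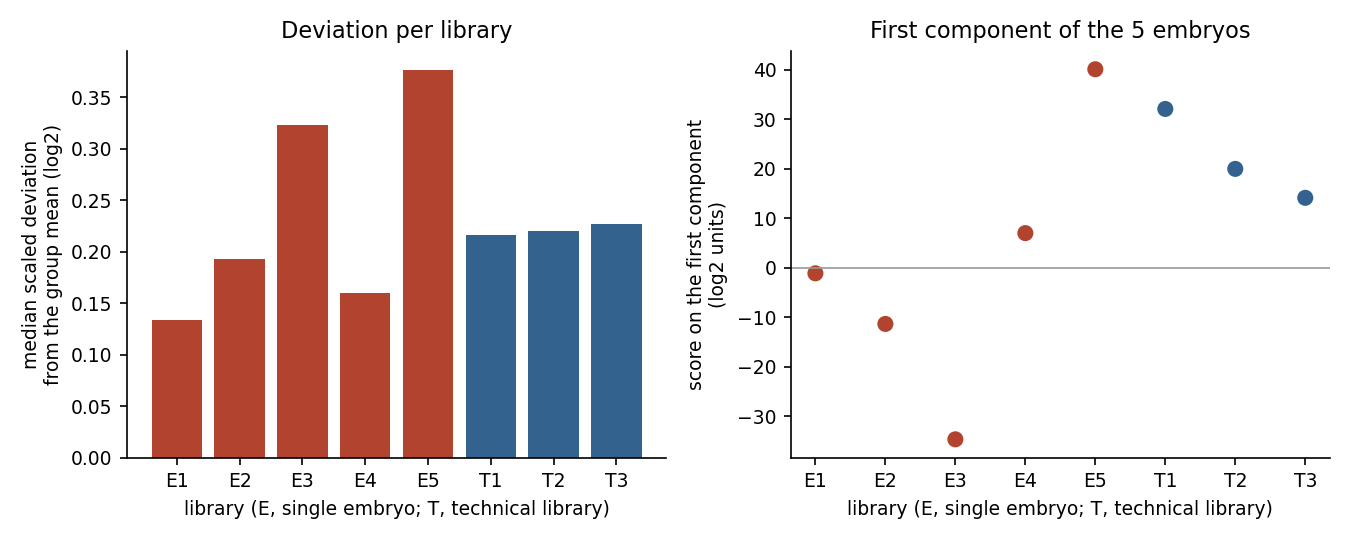
Left, bars give the median scaled deviation from the group mean (log2 units) of 5 single embryos (E, red) and 3 technical libraries (T, blue), with embryos 3 and 5 the tallest at 0.323 and 0.376. Right, points give the score (log2 units) of each library on the first principal component of the embryos, with embryo 3 at -34.7, embryo 5 at 40.1 and the technical libraries at 32.1, 20 and 14.1.

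A moderated F test in limma, which set the spread among embryos against the residual spread of the technical libraries, called 3 gene models at an adjusted p under 0.05, or 0.0351% of those tested. At an unadjusted p under 0.05 there were 575 (6.73%). With the groups exchanged, limma called 0, and 516 (6.04%) had an unadjusted p under 0.05. The groups differ in their number of libraries, so these tests differ in power and their counts are not measured alike. All 3 gene models called are unnamed, and their positions are on scaffolds of the JGIv7b assembly.

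The first lies on the minus strand of scaffold 256136 from 427805 to 428088, a transcript of 228 bases in 2 exons. It had 25.9, 4327, 6122, 4150.1 and 57.9 FPKM in embryos 1 to 5, against 1086, 669.6 and 983 FPKM in the technical libraries. Embryos 2, 3 and 4 were above every technical library and embryos 1 and 5 below all of them, with an SD of 3.81 log2 units over embryos and 0.37 log2 units over technical libraries (limma, adjusted p = 2.4e-05). The lowest embryo rested on 8.32 reads, so that this gene model does not enter the test at 20 reads described next. Its nearest named neighbour, loc496024:slc29a1, lies 2391 bases away.

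The second lies on the minus strand of scaffold 11418 from 444219 to 445694, a transcript of 690 bases. It overlaps unnamed gene models on the plus strand, from 302602 to 446493 and from 324952 to 457110. It had 1465, 362, 364, 1091 and 114 FPKM in embryos 1 to 5, against 1190.1, 1076 and 1268 FPKM in the technical libraries. Embryos 2, 3 and 5 were below every technical library, embryo 1 above and embryo 4 among them, with an SD of 1.46 log2 units over embryos and 0.12 log2 units over technical libraries (limma, adjusted p = 0.010). The plus-strand gene model from 302602 to 446493 had 264, 753, 989, 279 and 559 FPKM in embryos 1 to 5. The technical libraries had 427, 383 and 603 FPKM for it (limma, adjusted p = 0.50, and 0.0044 in the repeated test described below). Embryos 1 and 4 were its lowest embryos and the highest of the minus-strand gene model, whereas embryo 5 was not an extreme in it. The part of this overlap in the spread was not tested. The third lies on the minus strand of scaffold 939 from 5547422 to 5550943, a transcript of 468 bases within the span of the rab26 gene model on the same strand. It also overlaps an unnamed gene model on the plus strand, from 5547358 to 5548299. It had 2015, 30167, 19695, 17702 and 6634 FPKM in embryos 1 to 5, against 16998, 14454 and 13749 FPKM in the technical libraries. Embryo 1 was lowest, and embryos 2, 3 and 4 were above every technical library, with an SD of 1.57 log2 units over embryos and 0.16 log2 units over technical libraries (limma, adjusted p = 0.046).

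Many gene models rested on few reads in the shallow technical libraries, so the test was repeated on the 4680 with at least 20 recovered reads in all 8 libraries, a limit chosen after the data were seen. limma then called 81 (1.73%), of which 56 have a name, with 953 (20.4%) at an unadjusted p under 0.05. The exchanged test, which differs in power, called 0, with 62 (1.32%) at an unadjusted p under 0.05. The called gene models had a median SD of 0.72 log2 units over embryos and 0.24 over technical libraries. Some had a wide technical spread as well, such as gmfb (SD of 1.41 over embryos and 1.19 over technical libraries) and dnaja3 (1.13 and 0.76). limma pulled the technical residual toward a prior spread with 24.3 degrees of freedom here, against 7.56 over all 8548. Of the 81, 77 were also called among all 8548 when the prior spread followed recovered reads in place of FPKM, a fit that called 261 (3.05%). The prior of that fit had 60.7 degrees of freedom. The genes in the next paragraphs were singled out after their values were seen, their adjusted p-values are those of limma over the 4680, and none of them had an adjusted p under 0.05 over all 8548.

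**Figure D2:**
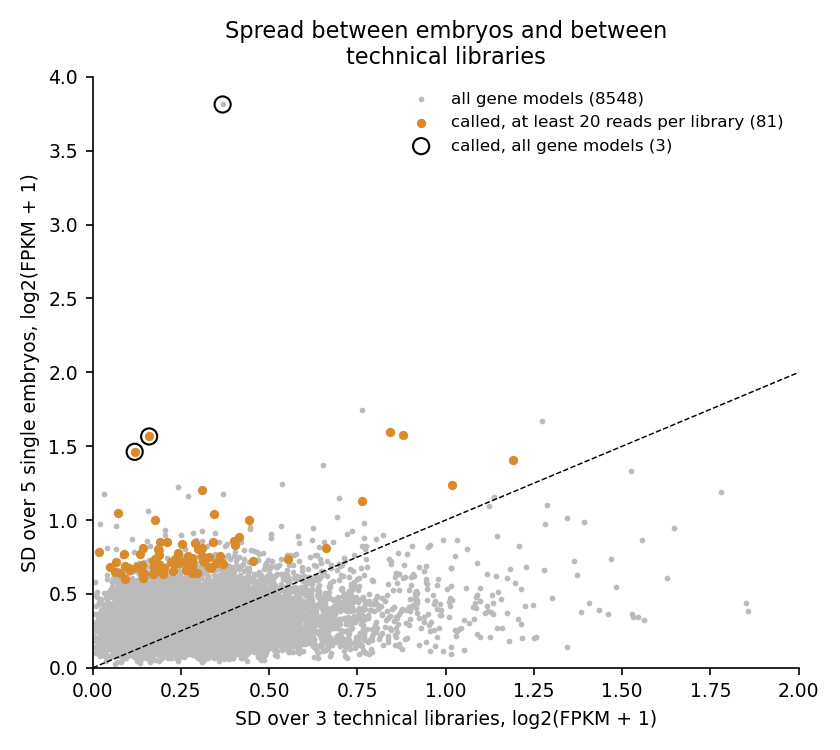
Each point is 1 of 8548 gene models, with the SD of log2(FPKM + 1) over 3 technical libraries on the horizontal axis and over 5 single embryos on the vertical axis, and a dashed line at equal SD. Orange points are the 81 called with at least 20 reads in every library and circles the 3 called among all, the highest of them at 3.81 over embryos and 0.37 over technical libraries.

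One set of genes was highest in embryo 3 and lowest in embryo 5. Hyaluronan synthase, which makes the matrix polysaccharide hyaluronan, has neighbouring gene models on the plus strand of scaffold 70246. The gene model has-rs (891007 to 893440) had 432, 308, 534, 417 and 118 FPKM in embryos 1 to 5, against 202, 240 and 262 FPKM in the technical libraries (adjusted p = 0.0025). The gene model has-rs:has1 (878750 to 881953) had 506, 436, 611, 417 and 146 FPKM in embryos, against 358, 462 and 409 FPKM in technical libraries (adjusted p = 0.0044). In both, embryo 5 lay below every technical library. Related copies may have shared reads.

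The gene model tbx20:vegt of 2541 bases, whose second name is that of a T-box factor that specifies endoderm and mesoderm in *Xenopus*, had 73.4, 61.5, 113, 74.7 and 31.6 FPKM in embryos 1 to 5, against 58.2, 62.9 and 79.3 FPKM in the technical libraries (adjusted p = 0.042). The FGF receptor gene fgfr4:fgfr-4c had 68.1, 38.9, 74.1, 66 and 23.8 FPKM in embryos, against 41.8, 44.2 and 49.9 FPKM in technical libraries (adjusted p = 0.037). The chemokine receptor gene cxcr4 had 28.3, 34.3, 34.7, 28.7 and 9.36 FPKM in embryos, against 16.3, 26.2 and 19.5 FPKM in technical libraries (adjusted p = 0.037). In all 3 the technical libraries lay within the range of the embryos. The excess in cxcr4 rested on embryo 5, without which the SD over embryos minus that over technical libraries was -0.176. Another cxcr4 gene model, of 629 bases, had another order, with embryo 1 highest and embryo 4 lowest (limma, unadjusted p = 0.27). It had 32.4, 24.8, 21.0, 14.3 and 16.6 FPKM in embryos, against 20.4, 11.6 and 13.7 FPKM in technical libraries. Another tbx20:vegt gene model, of 2493 bases and more abundant, was highest in embryo 1 and lowest in embryo 5 (limma, unadjusted p = 0.18).

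The gene model mat2a of 2978 bases, whose product makes S-adenosylmethionine, had 171, 194, 212, 171 and 53.1 FPKM in embryos 1 to 5, against 121, 129 and 147 FPKM in the technical libraries (adjusted p = 0.0044). Another mat2a gene model, of 1110 bases, had the same extremes with a narrower spread (limma, unadjusted p = 0.21). It had 212, 214, 217, 196 and 134 FPKM in embryos, against 164, 179 and 180 FPKM in technical libraries. The glycolytic aldolase gene aldoc had 104, 102, 160.4, 84.7 and 41.5 FPKM in embryos, against 47.1, 49.2 and 60.2 FPKM in technical libraries (adjusted p = 0.025). The aldolase gene model aldoa:loc100037142:mgc64482 of 1011 bases had 135, 160.4, 219.6, 121 and 62.5 FPKM in embryos, against 72.9, 75.7 and 84.1 FPKM in technical libraries (adjusted p = 0.028). In both of these aldolase gene models embryos 1 to 4 lay above every technical library and embryo 5 below all of them. Another gene model with the same aldoa label, of 2098 bases, had 22.1, 24.5, 37.4, 25.7 and 15.8 FPKM in embryos. The technical libraries had 15.8, 15.7 and 14.3 FPKM for it (limma, unadjusted p = 0.19).

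Other glycolytic genes did not pass the threshold. The gene tpi1 had 828, 793, 1136, 618 and 410 FPKM in embryos 1 to 5, against 393, 393 and 499 FPKM in the technical libraries (adjusted p = 0.078). The gene model gapdh:myh4 had 1127, 1047, 1627, 806 and 596 FPKM in embryos, against 376, 457 and 512 FPKM in technical libraries (adjusted p = 0.085), and eno1 had 377, 294, 478, 299.7 and 192 FPKM in embryos, against 135, 172 and 173 FPKM in technical libraries (adjusted p = 0.12). Embryo 3 had the highest value and embryo 5 the lowest embryo value in all 3. The isomerase gene gpi of 1746 bases had another order, with 209, 135, 152, 179 and 208 FPKM in embryos, against 166, 162 and 179 FPKM in technical libraries (adjusted p = 0.55). In a glycolysis list drawn up after these values were seen, 5 of 14 gene models were higher in embryo 5 than in embryo 3, with a median difference of -0.61 log2 units, where the median over all 8548 was 0.16.

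Single genes of other roles had this order too. The gene model ints8 of 1673 bases, named for a subunit of the Integrator complex that processes small nuclear RNA, had 36.5, 30.9, 57.8, 34.1 and 5.58 FPKM in embryos 1 to 5, against 29.9, 46.1 and 40 FPKM in the technical libraries (adjusted p = 0.00017). A longer ints8 gene model of 3138 bases on the same scaffold did not share its spread, with 14.8, 13.4, 16, 14.5 and 14.1 FPKM in embryos, against 7.57, 7.32 and 12.2 FPKM in technical libraries. The splicing factor gene srsf1 of 1110 bases had 56.6, 73.8, 96.2, 44.4 and 27 FPKM in embryos, against 56.4, 63.8 and 57.8 FPKM in technical libraries (adjusted p = 0.031). In the shorter ints8 and in this srsf1, embryo 5 lay below every technical library. A second srsf1 gene model of 916 bases had 30.3, 26.7, 26.1, 28.2 and 23.9 FPKM in embryos, against 19, 23.2 and 27.2 FPKM in technical libraries (unadjusted p = 0.96). The RNA-binding protein gene hnrpa0 had 73, 97, 117, 84.8 and 28.4 FPKM in embryos, against 97.1, 102 and 133 FPKM in technical libraries (adjusted p = 0.011). The beta-tubulin gene tubb4b:tubb2c had 1443, 1382, 2016, 1006 and 626 FPKM in embryos, against 552, 635 and 699.6 FPKM in technical libraries (adjusted p = 0.037). Embryo 3 was again highest and embryo 5 lowest among the embryos. The gene zp3, for a glycoprotein of the egg coat made in the oocyte, had 76.4, 71.7, 90.1, 51 and 26.7 FPKM in embryos, against 37.7, 37.1 and 30.2 FPKM in technical libraries (adjusted p = 0.037), with the same order of these embryos.

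Other genes were highest in embryo 5 and lowest in embryo 3. The checkpoint kinase gene chek1 of 1422 bases had 69.5, 63.6, 31.8, 82.6 and 144 FPKM in embryos 1 to 5, against 137, 127 and 121 FPKM in the technical libraries (adjusted p = 0.0094). Geminin, which blocks a second licensing of replication origins, has a pair of gene models. That of 970 bases, gmnn, had 339, 295, 150.3, 342 and 511 FPKM in embryos, against 753, 651 and 512 FPKM in technical libraries (adjusted p = 0.037), and that of 1651 bases, gmnn:loc398096, had 104, 86.1, 48.4, 101 and 198 FPKM in embryos, against 221, 233 and 162 FPKM in technical libraries (adjusted p = 0.019). Embryo 5 was the embryo nearest to the technical libraries in all 3. A second chek1 gene model of 2751 bases had another order, with 20.5, 24.9, 14.6, 24.1 and 22.3 FPKM in embryos, against 16.7, 22.1 and 16.4 FPKM in technical libraries (unadjusted p = 0.55). In the cell cycle list 43 of 81 gene models (53.1%) were higher in embryo 5 than in embryo 3, against 57.5% of all gene models.

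The cohesin subunit gene stag2 had 18.9, 10.5, 5.51, 20.1 and 28.1 FPKM in embryos 1 to 5, against 21.5, 22.9 and 17.1 FPKM in the technical libraries (adjusted p = 0.011). The gene c3orf37:hmces, whose product shields abasic sites in single-stranded DNA, had 57.8, 59.8, 30.8, 75.8 and 129 FPKM in embryos, against 150, 140.4 and 118 FPKM in technical libraries (adjusted p = 0.015). The gene rpp40, for a subunit of ribonuclease P, had 167, 131, 92.1, 162 and 362 FPKM in embryos, against 465, 388 and 302 FPKM in technical libraries (adjusted p = 0.018). Embryo 3 lay below every technical library in these 3 genes. The homeobox gene vex1:ventx3.2, of the vent family that acts on the ventral side, had 168, 90.8, 90.3, 157 and 271 FPKM in embryos, against 276, 302 and 235 FPKM in technical libraries (adjusted p = 0.025).

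Zinc finger genes on the plus strand of scaffold 223728 had a like pattern. The gene model znf300 (299057 to 309789) had 48.9, 82.4, 30.6, 69.3 and 163 FPKM in embryos 1 to 5, against 202, 227 and 131 FPKM in the technical libraries (adjusted p = 0.0056). The gene model znf585b:xfdl156a (447252 to 452191) had 31.4, 63, 19.7, 36.8 and 89.8 FPKM in embryos, against 85.7, 71.9 and 60 FPKM in technical libraries (adjusted p = 0.0094). The gene model prdm9 (454531 to 456656), named after a histone methyltransferase of meiotic recombination in mammals, had 35.7, 47.2, 13.7, 35.1 and 101 FPKM in embryos, against 93.7, 84.7 and 52.3 FPKM in technical libraries (adjusted p = 0.0030). Embryo 5 was highest, embryo 2 next and embryo 3 lowest among the embryos in all 3. The scaffold was picked after its values were seen: of 9 gene models tested on it, 4 had an unadjusted p under 0.05, where the share over all was 6.73%, and other scaffolds held 4 or more such gene models as well. A second prdm9 gene model of 1979 bases on it did not (unadjusted p = 0.18), and related zinc finger sequences may share reads. On other scaffolds, znf300 gene models of 2188 and 1868 bases were highest in embryo 3 (limma, unadjusted p = 0.58 and 0.79). A prdm9 gene model of 3167 bases on another scaffold was highest in embryo 5 and lowest in embryo 3 (limma, unadjusted p = 0.027).

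In other genes with these extremes a single embryo or a pair stood out. The gene sav1 of 1164 bases, for a scaffold protein of the Hippo pathway, had 51.4, 56.6, 16.6, 58.3 and 64.7 FPKM in embryos 1 to 5, against 69.6, 69.2 and 67.9 FPKM in the technical libraries (adjusted p = 0.011), with embryo 3 far below the others. A second sav1 gene model of 3747 bases was lowest in embryo 5, with 13.2, 12.3, 10.3, 7.26 and 5.45 FPKM in embryos, against 18.3, 16.8 and 21.4 FPKM in technical libraries (unadjusted p = 0.13). The profilin gene pfn1:mgc64293 had 82.3, 167, 181, 102 and 54.2 FPKM in embryos, against 139, 131 and 143 FPKM in technical libraries (adjusted p = 0.013), and the G protein regulator gene rgs19 of 1723 bases had 33.9, 62.6, 76.5, 23.1 and 21.2 FPKM in embryos, against 35.6, 51.1 and 34.5 FPKM in technical libraries (adjusted p = 0.015). Embryos 2 and 3 were the high pair in both. The gene model btg4:b9 of 900 bases, named for an adaptor in removal of maternal mRNA in the mouse, had 46.2, 87.9, 34.2, 51 and 99.3 FPKM in embryos, against 84.5, 94.9 and 111 FPKM in technical libraries (adjusted p = 0.049), with embryos 2 and 5 the high pair. In a second btg4:b9 gene model of 738 bases the SD was 0.32 over embryos and 0.37 over technical libraries. The gene model esr-5:hes7, of the hairy and enhancer of split family of repressors, fell short of 20 reads and had an adjusted p of 0.17 over all 8548, the lowest of any named gene model. It had 59.2, 36, 169, 42.4 and 15.5 FPKM in embryos 1 to 5, against 29.7, 41.1 and 38.3 FPKM in the technical libraries, with embryo 3 far above the rest.

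**Figure D3:**
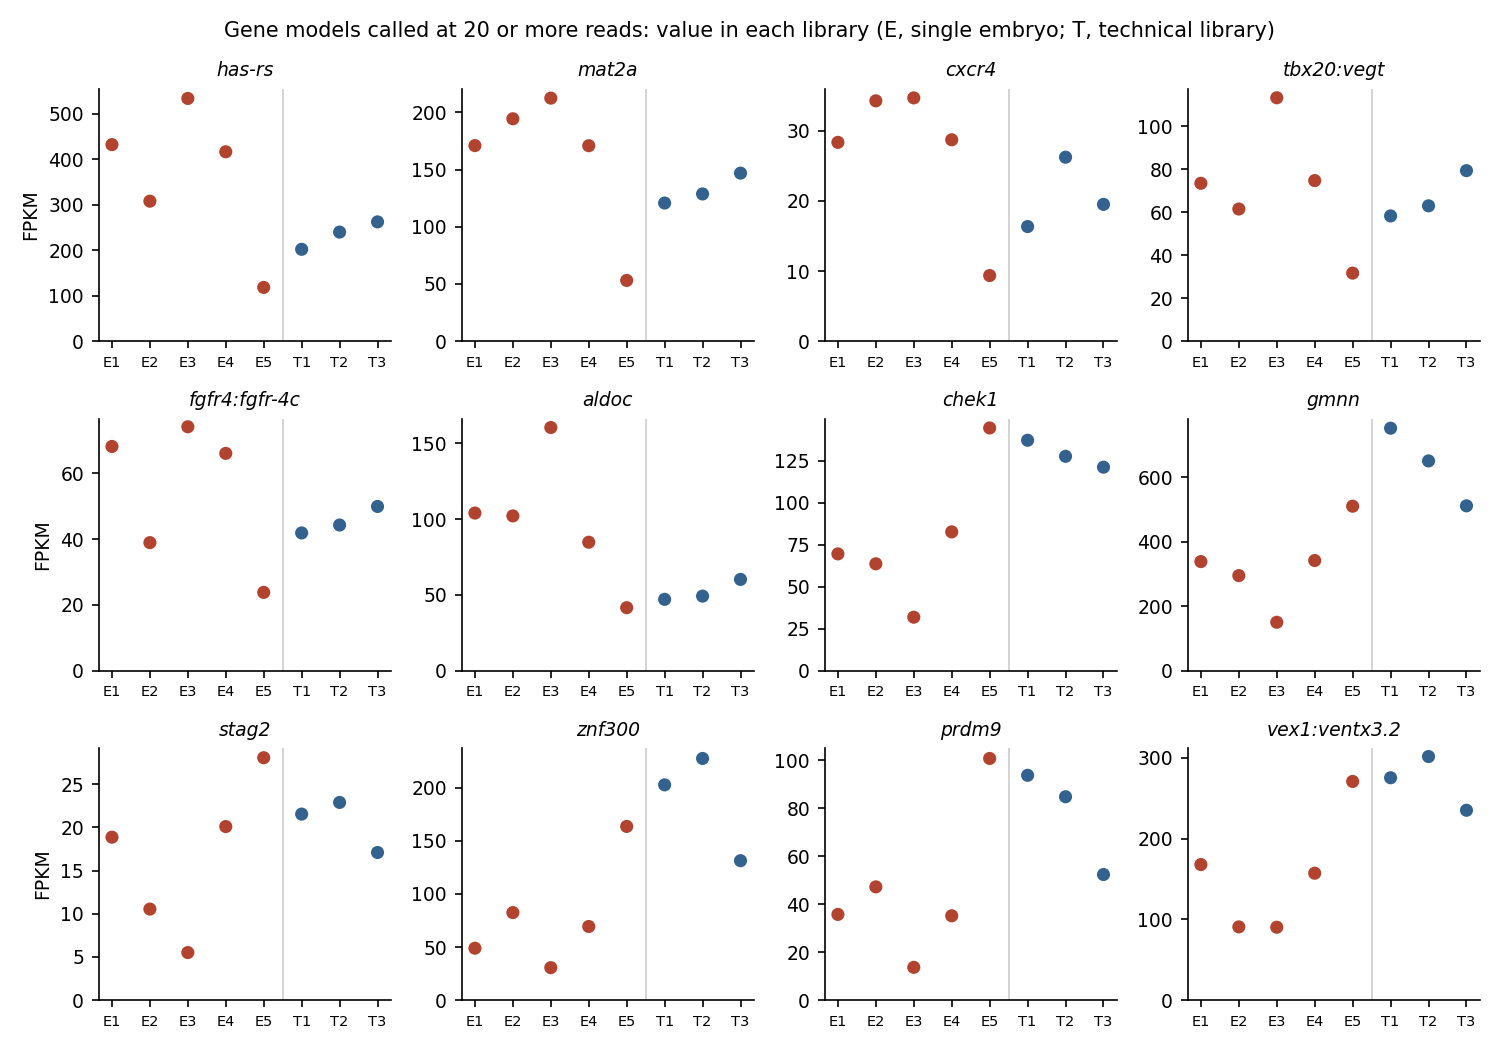
Each panel gives the FPKM of 1 gene model in 5 single embryos (E, red) and 3 technical libraries (T, blue), on axes that start at 0. In has-rs, mat2a, cxcr4, tbx20:vegt, fgfr4:fgfr-4c and aldoc embryo 3 is the highest embryo and embryo 5 the lowest, and in chek1, gmnn, stag2, znf300, prdm9 and vex1:ventx3.2 embryo 5 is the highest and embryo 3 the lowest.

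The same order ran through the gene models as a whole. The first principal component of the 5 embryos held 62.0% of the variance over 8548 gene models and ran from embryo 3 (-34.7) through embryos 2 (-11.3), 1 (-1.12) and 4 (7.01) to embryo 5 (40.1). The second held 16.2% and set embryo 2 (24.1) apart. The technical libraries, which did not enter the component, all had positive scores, at 32.1, 20 and 14.1.

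Of the 575 gene models with an unadjusted p under 0.05, 290 (50.4%) had embryo 5 highest and embryo 3 lowest and 111 (19.3%) the reverse, where the shares over all 8548 were 25.4% and 15.7%. Of the 81 called with at least 20 reads, 40 (49.4%) had embryo 5 highest and embryo 3 lowest and 22 (27.2%) the reverse. Both sets were chosen on the spread of these same embryos, so the shares are a description. Embryo 5 was the embryo nearest to the technical mean in 39 of the 81 (48.1%) and embryo 3 in 4 (4.94%), where the shares over all 8548 were 36% and 15.6%. Without embryos 3 and 5 the spread test called 2 gene models over all 8548, and 150 had an unadjusted p under 0.05, against 575 with all embryos. The exchanged test then called 22, and 1358 had an unadjusted p under 0.05, against 516. In 14 of the 38 gene models named for spread the SD was then smaller over embryos than over technical libraries. The test at 20 reads was not run without embryos 3 and 5. Most of the 38 were named with embryos 3 and 5 as their extremes. Leaving these embryos out lowers the SD by that choice, so these counts are a description. Among 1231 names with 2 tested gene models, embryo 5 stood on the same side of embryo 3 in both for 948 (77.0%), a share to which reads divided between near-identical copies can add.

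Lists of genes lay at different places along this order. The pluripotency and early zygotic list had a median deviation from the mean of the 8 libraries of 0.68 log2 units in embryo 3, 0.09 to 0.21 in embryos 1, 2 and 4 and -0.19 in embryo 5, against -0.42, 0.05 and -0.29 in the technical libraries. Of its 11 members, 2 were higher in embryo 5 than in embryo 3, with a median difference of -0.76 log2 units. Embryo 5 was higher in 6 of 19 neural genes (median -0.51), 10 of 23 mesoderm genes (median -0.25), 8 of 27 ventral BMP genes (median -0.48), 8 of 28 epidermal genes (median -0.34) and 6 of 22 endodermal genes (median -0.31). In the organizer list 14 of 22 (63.6%) were higher in embryo 5, against 57.5% of all gene models, with a median difference of 0.29. Among mitochondrial ribosomal protein genes 46 of 62 were higher in embryo 5, with a median of 0.54, and cytosolic ribosomal protein genes had 60 of 123 and a median of -0.02. Over all gene models the median was 0.16. These differences between embryos were not tested.

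Over all 8548 gene models limma called 0 in every list. With at least 20 reads, where it called 1.73% of all gene models, it called 2 of 13 neural genes, both of them gmnn, 1 of 69 cell cycle genes, which was chek1, 1 of 31 maternal and germ plasm genes, which was zp3, 1 of 13 endoderm genes, which was cxcr4, 1 of 86 cytosolic ribosomal protein genes and 1 of 45 oxidative phosphorylation genes. In p53 and apoptosis it called 1 of 21, the cyclin G gene ccng1:mgc53060, which had 38.8, 56, 23.4, 15.8 and 32.2 FPKM in embryos 1 to 5, against 79.1, 83.7 and 72.5 FPKM in the technical libraries (adjusted p = 0.039). All embryos lay below all technical libraries in this gene. Organizer, ventral BMP, mesoderm, epidermis, pluripotency, histone, mitochondrial ribosomal, and immediate early and stress lists had 0 called at this limit. A merged label entered a list only if every gene name in it matched, placeholder names aside. The called gene models tbx20:vegt and vex1:ventx3.2 were not members of the mesoderm or ventral BMP list, so these zeros do not cover them.

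**Figure D4:**
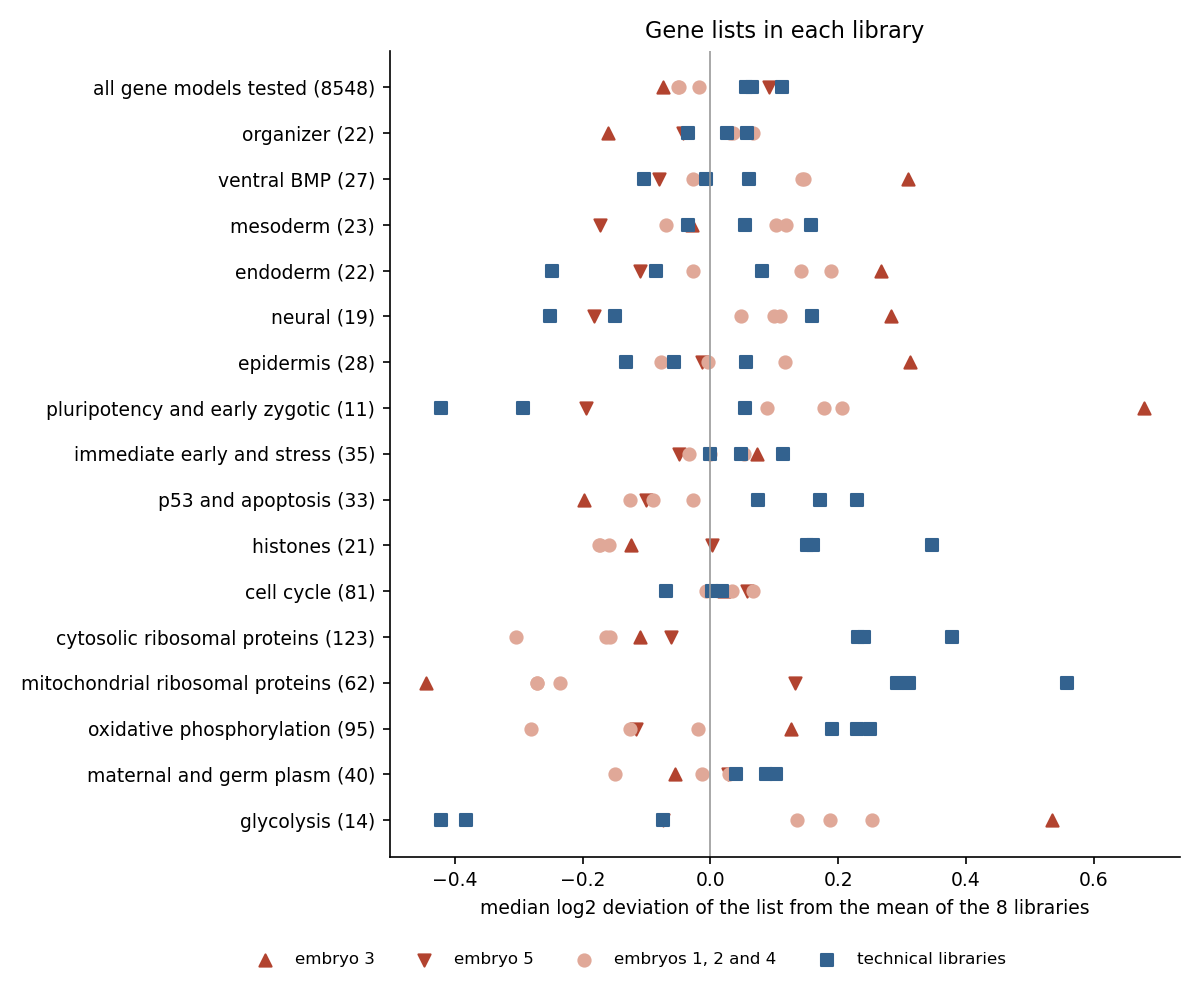
Each line is a gene list with its number of gene models, and points give the median log2 deviation of the list from the mean of the 8 libraries in embryo 3 (upward triangle), embryo 5 (downward triangle), embryos 1, 2 and 4 (pale circles) and the technical libraries (blue squares). Pluripotency and early zygotic genes reach 0.68 in embryo 3, and mitochondrial ribosomal protein genes lie at -0.45 in embryo 3 and between 0.29 and 0.56 in the technical libraries.

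Mean levels differed between single embryos and technical libraries in many genes. limma called 647 gene models (7.57%) higher and 1025 (12%) lower in embryos at an adjusted p under 0.05, in all 1672 (19.6%). All embryos lay above all technical libraries in 910 (10.6%) and below them in 1165 (13.6%). The median log2 difference was -0.11, and the direction of calls turned with the scaling, which gave 864 higher and 760 lower after median-ratio rescaling, 878 higher and 654 lower after cyclic loess, and 801 higher and 613 lower once a trend with transcript length was removed, a step that moved the median by 0.10. Those higher had a median transcript of 2295 bases and those lower one of 1259 bases, where the median over all was 1759. Embryo 5 was the embryo nearest to the technical mean in 952 of the 1672 called (56.9%), where the share over all was 36%. Without technical library 1 there were 168 higher and 149 lower, and without embryo 5 there were 967 higher and 1866 lower. Without embryos 3 and 5 there were 771 higher and 1537 lower.

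The 6 largest differences among gene models higher in embryos without overlap were those of ppp4r2, elovl1, wdr76, slc18a2, kctd6 and tbc1d8:tbc1d8b. The vesicular monoamine transporter gene slc18a2 had 69.2, 66, 78.1, 57.1 and 43.3 FPKM in embryos 1 to 5, against 18.9, 22 and 19.4 FPKM in the technical libraries, a log2 difference of 1.57 ± 0.22 (SE, adjusted p = 0.0065). The gene wdr76 had 30.6, 29.2, 26.1, 42.8 and 34.2 FPKM in embryos, against 10.6, 7.50 and 12 FPKM in technical libraries, a log2 difference of 1.61 ± 0.23 (adjusted p = 0.0065). The gene model tbc1d8:tbc1d8b had 21.7, 21.1, 22.8, 23.3 and 14.4 FPKM in embryos, against 5.65, 8.42 and 5.31 FPKM in technical libraries, a log2 difference of 1.54 ± 0.23 (adjusted p = 0.0065). The lowest embryo lay above the highest technical library in each. The differences of ppp4r2 (1.91 ± 0.33), elovl1 (1.68 ± 0.30) and kctd6 (1.54 ± 0.28) rested on as few as 3.05, 2.17 and 6.01 reads in a technical library, and that of wdr76 on 7. A second elovl1 gene model of 904 bases was not called (0.57, limma, adjusted p = 0.13). Of further ppp4r2 gene models, that of 1409 bases was not called (0.14, limma, adjusted p = 0.58) and that of 2111 bases was (0.98, adjusted p = 0.011).

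Regulators of the early embryo were among the genes higher in single embryos. The maternal Wnt ligand gene wnt11b had 45.8, 31.3, 61.4, 38.9 and 21.1 FPKM in embryos 1 to 5, against 14, 17.1 and 11.3 FPKM in the technical libraries, a log2 difference of 1.36 ± 0.30 (adjusted p = 0.015). The epidermal transcription factor gene grhl1 had 66.1, 58.9, 65.3, 71.2 and 56.7 FPKM in embryos, against 27.5, 26.5 and 35 FPKM in technical libraries (1.08 ± 0.19, adjusted p = 0.010). The mesendoderm homeobox gene mix1 of 1584 bases had 119.8, 103, 114, 94.9 and 99.2 FPKM in embryos, against 45.4, 63.4 and 59.7 FPKM in technical libraries (0.92 ± 0.19, adjusted p = 0.012). In grhl1 and mix1 the embryos lay close together and well above the technical libraries. Second gene models of both were not called, with a log2 difference of 0.44 for grhl1 (2093 bases, adjusted p = 0.10) and 0.67 for mix1 (1131 bases, adjusted p = 0.061). Of the 4 gene models of id3, a target of BMP signalling, 3 were higher, those of 486 bases (1.17 ± 0.24), 549 bases (0.84 ± 0.18) and 723 bases (1.26), and that of 1910 bases was not called (0.47, adjusted p = 0.20). The last overlaps those of 486 and 723 bases on the same scaffold. The endodermal homeobox gene bix4 (0.84 ± 0.20), the ectodermal forkhead gene foxi2 (0.83 ± 0.22), patl2, for an mRNA-binding protein of the oocyte (0.89 ± 0.21), and the spindle checkpoint gene bub3 (1.11 ± 0.18) were also higher. A second foxi2 gene model was not called (1694 bases, 0.51, limma, adjusted p = 0.12), and a second bub3 gene model was (2051 bases, 1.17, adjusted p = 0.013). A second tbx20:vegt gene model, of 2493 bases, had 329, 277, 278, 283 and 179.7 FPKM in embryos, against 114, 113 and 147 FPKM in technical libraries and was higher by 1.09 log2 units.

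Short housekeeping transcripts were among those lower in single embryos. The gene ndufs4, for a subunit of respiratory complex I, had 10.7, 6.99, 7.39, 14.7 and 11.7 FPKM in embryos 1 to 5, against 28.7, 41 and 27.3 FPKM in the technical libraries, a log2 difference of -1.59 ± 0.26 (adjusted p = 0.0085). The mitochondrial ribosomal protein gene mrps16 had 51.8, 46.2, 22.2, 44.8 and 85.1 FPKM in embryos, against 157, 128 and 104 FPKM in technical libraries (-1.46 ± 0.33, adjusted p = 0.015). The cytosolic ribosomal protein gene mgc82136:rps20 had 445, 292, 416, 389 and 415 FPKM in embryos, against 1044, 811 and 792 FPKM in technical libraries (-1.17 ± 0.20, adjusted p = 0.0086). No embryo reached the lowest technical library in any of them. The ribosomal protein genes rps14 (-1.01 ± 0.18), mrps17 (-1.03 ± 0.23) and mrps18b (-0.97 ± 0.21) were lower as well. Second gene models of ndufs4 (1079 bases, -0.47, limma, adjusted p = 0.16) and rps14 (1155 bases, -0.56, limma, adjusted p = 0.061) were not called. The largest differences without overlap also included cnfn:cnfn.1 (-1.59 ± 0.39), c21orf59 (-1.49 ± 0.31), znf300:znf33a (-1.47 ± 0.26) and myeov2 (-1.44 ± 0.29), the last on as few as 3.92 reads in a technical library and cnfn:cnfn.1 on as few as 5.1 in an embryo. Fewer than 20 reads in at least 1 library also lay behind wnt11b, ndufs4, mrps16, c21orf59, h2afv:loc397949:h2afz, hspe1 and hba1:mgc82602.

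Regulators were found on this side too. The gene admp, for a BMP-type ligand of the organizer, had 159, 184, 125, 138 and 169 FPKM in embryos 1 to 5, against 312, 263 and 249 FPKM in the technical libraries, a log2 difference of -0.83 ± 0.19 (adjusted p = 0.016). The gene pnhd, for a secreted mesoderm factor of *Xenopus*, differed by -0.85 ± 0.21. The cyclin G gene model ccng1 of 988 bases had 36.1, 39.5, 26.6, 19.1 and 27.5 FPKM in embryos, against 61.5, 84.3 and 79.1 FPKM in technical libraries (-1.34 ± 0.25, adjusted p = 0.010). No embryo reached the technical libraries in these genes. The pro-apoptotic gene bcl2l11 (-0.91 ± 0.21), the antiproliferative gene btg1 (-0.86 ± 0.18), the Cdk subunit gene cks2:cks1b (-1.06 ± 0.20) and the mitochondrial chaperonin gene hspe1 (-1.01 ± 0.27) were lower. So were the histone gene models h2afv:loc397949:h2afz (-1.40 ± 0.30) and hist1h2am:mgc68595:hist1h2aa (-0.88 ± 0.22), and both gene models of geminin, gmnn (-1.05 ± 0.31) and gmnn:loc398096 (-1.06 ± 0.34). Second gene models of bcl2l11 (694 bases, -0.55, limma, adjusted p = 0.054) and hspe1 (378 bases, -0.55, limma, adjusted p = 0.20) were not called. A second admp gene model was (2208 bases, -0.75, adjusted p = 0.040).

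Ribosomal and respiratory lists had more calls lower than higher, as did all gene models together, with 12% lower, 7.57% higher and a median of -0.11. Of 123 cytosolic ribosomal protein gene models, 35 were lower and 1 higher in embryos, with a median log2 difference of -0.46. Of 62 for the mitochondrial ribosome, 24 were lower and 1 higher, with a median of -0.61. Of 95 for oxidative phosphorylation, 20 were lower and 4 higher, with a median of -0.33, and cox5b.1 (1.44 ± 0.24, on as few as 2.02 reads in a technical library) was among those higher. A second cox5b.1 gene model of 615 bases went the other way and was not called (-0.41, limma, adjusted p = 0.20). The median transcripts of these lists had 804, 918 and 708 bases, against 1759 over all. Once the length trend was removed, cytosolic ribosomal proteins had 15 lower and 7 higher, mitochondrial ones 7 lower and 2 higher, and oxidative phosphorylation 6 lower and 5 higher, with medians of -0.22, -0.42 and -0.08. Without technical library 1 the lower calls numbered 7, 3 and 4.

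Most patterning lists held calls in both directions, where 7.57% of all gene models were higher and 12% lower. The neural list did not, with 0 higher and 2 lower of 19. Of 22 endoderm genes 4 were higher and 2 lower in embryos, 4 epidermal genes higher and 2 lower of 28, 4 mesoderm genes higher and 1 lower of 23, 3 ventral BMP genes higher and 1 lower of 27, and 1 organizer gene higher and 4 lower of 22. In the pluripotency and early zygotic list 2 of 11 were higher and 0 lower, with a median of 0.49, and in the cell cycle list 12 of 81 were higher and 10 lower. Histone genes had 5 of 21 lower and 0 higher, and p53 and apoptosis genes 6 of 33 lower and 1 higher. Once the length trend was removed, histone genes had 1 lower and 1 higher, and p53 and apoptosis genes 2 lower and 2 higher. After cyclic loess the organizer list had 3 higher and 1 lower. Without technical library 1 the organizer, endoderm, mesoderm, neural, histone, and pluripotency and early zygotic lists had 0 calls in either direction. The p53 and apoptosis list then had 1 lower and 0 higher, ventral BMP 3 higher and 0 lower, and epidermis 1 higher and 0 lower. The cell cycle list had 4 higher and 2 lower. Without technical library 3 the pluripotency and early zygotic list had 0 higher and 1 lower. Of 8 markers for other cells that could cling to an embryo, 5 had a gene model. Only the globin label hba1:mgc82602 was called, with 41.3, 32.4, 42.8, 39 and 22.2 FPKM in embryos 1 to 5, against 12.5, 19 and 19.5 FPKM in the technical libraries (1.01 ± 0.26, adjusted p = 0.021). The globin gene hba2 was listed at 0 FPKM in all 8 libraries. The most abundant gene model of star had 8.87 FPKM in embryo 3, 2.78 FPKM in embryo 4 and 0 FPKM in every other library. Over all 8 libraries that of cyp17a1 had 10.8 to 18.5 FPKM, and that of amh, a merged label, 3.29 to 8.18 FPKM. The part of other cells in the mean difference was not tested.

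**Figure D5:**
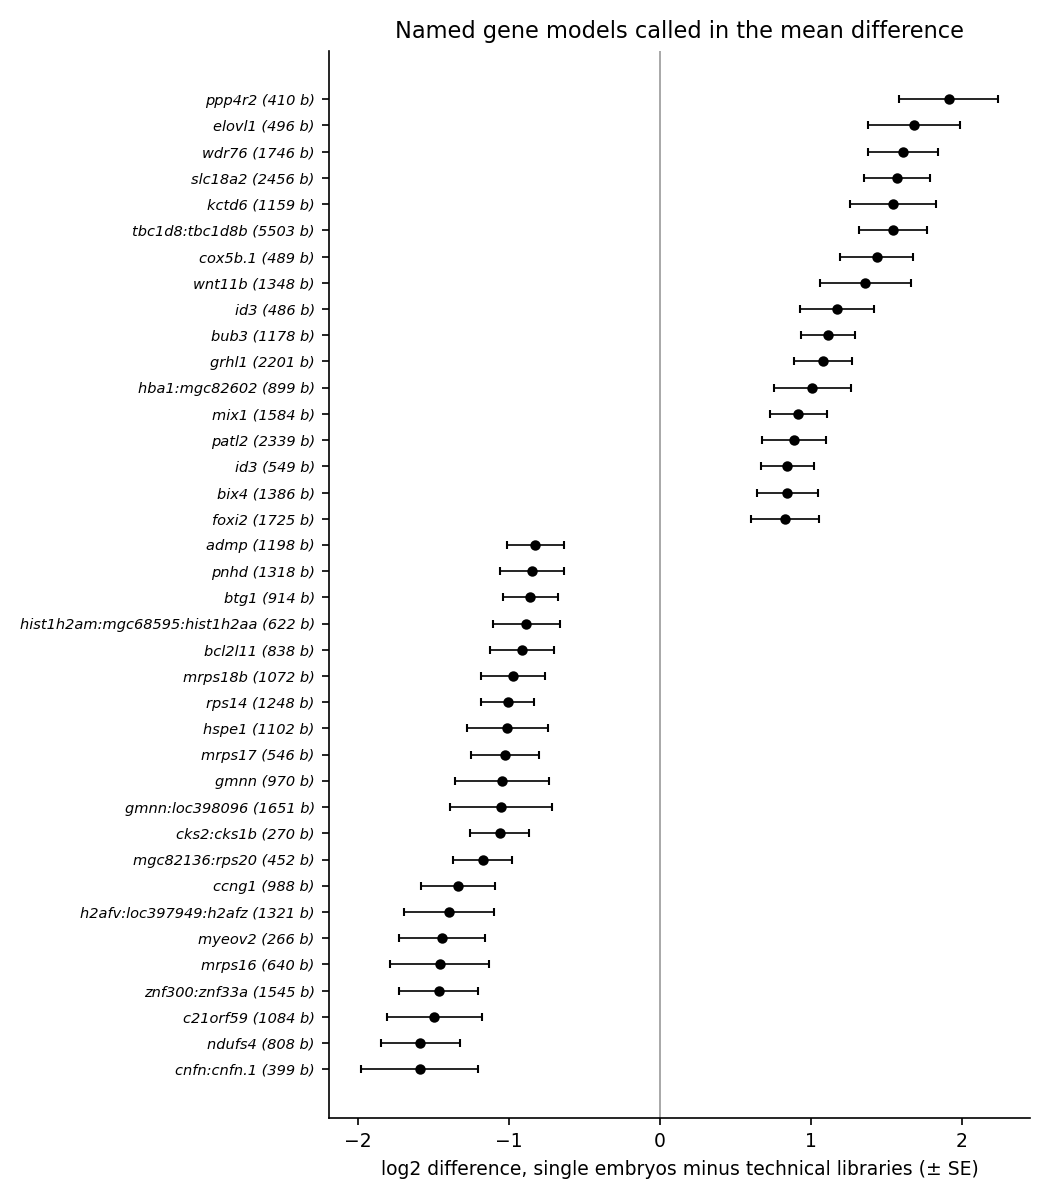
Points give the log2 difference of single embryos minus technical libraries for the named gene models called in the mean difference, with bars of 1 SE and transcript lengths in bases (b). The differences run from -1.59 in cnfn:cnfn.1 to 1.91 in ppp4r2.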

How the data were processed

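Total RNA of whole stage 10.5 embryos was sequenced as 5 single-embryo and 3 technical libraries. Per the labels and the study's methods, the authors mapped reads to the JGI assembly and deposited FPKM values per gene model from Cufflinks 2.1.1; the submitters' notes also name CASAVA 1.8.2, SAMtools 0.1.18 and Cuffdiff. FPKM values are not counts, so no count test was the main test, and short or rarely read transcripts are measured less precisely.

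Groups came from the labels. Members and gene lists were chosen with earlier results of these data known. Gene models that reached 5 FPKM in all 8 libraries were tested on log2(FPKM + 1) with limma 3.58.1 in R 4.3.3 (empirical Bayes prior with a trend on abundance, Benjamini-Hochberg adjustment over 8548 gene models). Spread was tested by a moderated F test over the embryos with the residual taken from the technical libraries, and the reverse. Mean differences are embryos minus technical libraries, and fold changes on this scale understate those of low genes. The scripts were tested on simulated data. Depth was recovered from FPKM steps: 88.6 to 90.7% of values under 20 reads, for transcripts of at least 500 bases, lay within 0.1 of a whole read, with an assumed mean fragment of 200 bases.

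The rule for named genes took the called gene models with the largest SD over embryos, which gave no named gene and up to 2 unnamed ones, the 6 largest differences without overlap in each direction, and up to 2 called members of each list. The third unnamed gene model, the genes described for spread at 20 reads, and the glycolysis list were chosen after their values were seen. Alternatives covered the filter, pseudocount, scaling, transcript length, prior, each library left out and a replicate block. Added after seeing the data were the limit of 20 reads, a prior on recovered reads and the fits without embryos 3 and 5. Egg libraries were not used here.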

Additional observations from a re-analysis of the deposited data

Results flagged for a closer look

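Dixon's ratio, the gap between the extreme embryo and its nearest neighbour divided by the range of all 5, was computed for 97 values over the 5 embryos, and 8 exceeded the critical value of 0.71, where chance alone passes about 1 in 20. That rate does not apply to the genes singled out for their spread over these same embryos, cxcr4, mat2a, has-rs:has1, ints8 and sav1 among them, so their ratios are a description. Groups of 3, and so the technical libraries, were not tested in this way. Embryo 5 was the low one in cxcr4 (ratio 0.842), mat2a (0.842), tbc1d8:tbc1d8b (0.794), has-rs:has1 (0.732) and ints8 (0.72). It was the high one in hist1h2am:mgc68595:hist1h2aa (0.856) and in the median of the histone list (0.717). Embryo 3 was the low one in sav1 (0.828).

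Of the 9769 gene models at 5 FPKM or more in each technical library, 0 were at 0 FPKM in all 5 embryos. Of the 9601 at that level in each embryo, 3 lay outside the filter, at 0 FPKM in all 3 technical libraries. They were a gene model of gnaq, for a G protein alpha subunit, with a transcript of 198 bases and a mean of 35.07 FPKM over embryos (11.6 to 67.7), an unnamed one of 225 bases at 12.69 FPKM (7.56 to 17.5) and an unnamed one of 701 bases at 6.77 FPKM (5.64 to 9.05). No fold against 0 is given. The counts of both sides are not alike, since 0 FPKM was asked of 3 libraries on one side and of 5 on the other. Every technical library was also shallower than every embryo library.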

How the results depend on the processing

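The spread test on embryos called 0 to 6 gene models under most alternatives: 6 after median-ratio rescaling, 1 without a prior trend, 1 with deviations from the group mean and 0 with deviations from the group median. It called 6052 of 32026 with no filter, 81 with at least 20 reads and 261 with a prior on recovered reads, and 1 to 27 with a library left out, the 27 without technical library 1. The exchanged test called 1433 with no filter, 22 without embryos 3 and 5, and 0 to 8 with a library left out. The mean difference gave 240 higher and 155 lower with no filter, 654 lower after cyclic loess and 613 lower without the length trend. With a library left out it gave 168 to 967 higher and 149 to 1866 lower, the lowest without technical library 1 and the highest without embryo 5. The causes were not tested.

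Deviations of same-numbered libraries of both groups had correlations across gene models of -0.098, 0.0051 and 0.22. Technical library 3 was nearest to embryo 3 by this measure, technical library 1 to embryo 5 (0.36) and technical library 2 to embryo 3 (0.061). The labels name no pairing, and these correlations cannot decide whether material was shared. With the replicate block there were 843 higher and 1873 lower.

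The difference in deviation per library turned to -0.0049 without embryo 3, -0.025 without embryo 5 and -0.0556 without both, and ran from -0.025 to 0.046 with a library left out. The SD over embryos minus that over technical libraries turned negative without embryo 5 in cxcr4 (-0.176) and vcp (-0.0325), where leaving out other libraries gave up to 0.576 in cxcr4 and 0.471 in vcp. Without embryos 3 and 5 it turned negative in cxcr4 (-0.18), ints8 (-0.19), prdm9 (-0.21), gmnn (-0.16), gmnn:loc398096 (-0.14), vcp (-0.176), rpp40 (-0.12), tbx20:vegt (-0.0749), hnrpa0 (-0.0390), znf300 (-0.038), has-rs:has1 (-0.038), mat2a (-0.036), aldoc (-0.024) and eno1 (-0.00291). These genes were singled out after their values were seen, with embryos 3 and 5 as their extremes, so the turns are a description. None of the 38 named mean differences changed direction in any alternative run, but they were chosen among called genes, many for groups without overlap. The adjusted p rose to 0.05 or more in 23 of them with no filter, in 19 without technical library 1 and in 8 without embryo 1. The technical libraries were the shallowest, at 725399 to 1173955 reads, and the effect of their depth on these runs was not tested.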

Other observations

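A level of 5 FPKM was reached by 9601 gene models in all 5 embryos and by 9769 in all 3 technical libraries. Of the 9601, 1053 were left out because a technical library fell under 5 FPKM, and of the 9769, 1221 because an embryo did.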
